A study of Mus musculus with 2 samples.

Results

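The 33 genes described here encode enzymes and regulators of cholesterol and fatty acid synthesis, 20 in a sterol arm and 13 in a fatty acid arm, and were chosen by their names and known roles. A gene entered through probe sets that carry its symbol and no other. Such a probe set was found for 32 of the 33 genes (19 sterol and 13 fatty acid), out of 18193 named genes in all. Acat2, a cytosolic acetoacetyl-CoA thiolase, was not analysed here. The 32 genes had 75 probe sets. Each gene was read at its brightest one by the mean of both arrays.

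The study compared hair follicles of wild-type mice with those of mice transgenic for dnFGFR2-IIIb at postnatal day 10, under a title that asks for targets of FGFR2-IIIb, the epithelial splice form of a fibroblast growth factor receptor. Each group was 1 Affymetrix Mouse430_2 array of total RNA, and each RNA pool held some 300 follicles, about 100 from each of 3 mice of separate litters. The sources used here do not give the strain or the promoter that drives the transgene. With 1 pool per group there was no replicate spread and no test, pooling hides the differences between mice, and the number of arrays limits the precision. Values below are signals in arbitrary units. Every difference is a ratio of the transgenic over the wild-type array, mostly as its log2, so that a negative value is a lower signal on the transgenic array.

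Of the non-control probe sets, 58.7% and 61.3% exceeded the floor of 10.5, the 40th percentile of both arrays, on the wild-type and transgenic arrays. The follicle keratins were bright on both: Krt25 of the inner root sheath read 12445 and 12716, and Krt33a of the hair shaft 10738 and 11826. Of 7 markers of the interfollicular epidermis, 3 lay under the floor on both, Flg and Krt1 among them, while Krt10, Lor and Krt77 exceeded it and read higher on the transgenic array. The pools differed in sex-linked genes, Xist reading 352 and 1146, Eif2s3y 191 and 0.40, and Kdm5d 55.3 and 8.60. A difference in the sex of the pooled mice and genotype cannot be told apart in any ratio below. A probe set for the 5' part of 18S ribosomal RNA read 3655 and 10275, while those for its middle and 3' parts read 175 and 168, and 538 and 660. Each array had a fluidics module of its own, so that module and genotype cannot be told apart.

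Cholesterol is built from acetyl-CoA through mevalonate, isoprenoid units, squalene and lanosterol. Fatty acids are built from the same acetyl-CoA by acetyl-CoA carboxylase and fatty acid synthase, and are then elongated and desaturated. The transcription factors SREBP-2, encoded by Srebf2, and SREBP-1, encoded by Srebf1, activate the sterol and fatty acid genes. INSIG1 holds these factors back in the endoplasmic reticulum. In skin, both arms supply the lipids of the water barrier and of sebum, and inherited defects of NSDHL, EBP and DHCR7 affect the skin or development.

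SREBP proteins act with NF-Y, which binds the CCAAT box, and Sp1, which binds GC boxes. Promoter sequences from RefSeq (GRCm38.p6) were matched by symbol for 27 of the 33 genes, 17 sterol and 10 fatty acid. The 250 bases before each listed start were searched on both strands for the sterol regulatory element TCACNCCAC, in which N is any base, as well as for the CCAAT box, for the GC box with the letters GGGCGG and for the E-box, which reads CACGTG. A gene with several starts counted when any window held the motif. CCAAT was found in 16 of 17 sterol promoters and 6 of 10 fatty acid promoters, against 37.5% of all 27025 genes in the table and 39.5% of the protein-coding ones. The GC box was likewise found in 16 of 17 and 6 of 10, against 35.4% and 45.8%. The sterol element was found in 1 member, Hmgcs1, against 1.22% of all genes, and the E-box in 4 of 17 and 1 of 10, against 6.86%.

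The promoters of 4 members the results turn on are printed for comparison: Hmgcs1 as the sterol gene with the highest ratio, Dhcr7 and Lss as those with the lowest, and Me1 as the member whose further probe set had the lowest ratio of all. Each run is the 250 bases before the start, 5' to 3' on the strand of the gene, with matches to the sterol element, CCAAT or the GC box, on either strand, in capitals. For Dhcr7 (3 listed starts) and Me1 (2 listed starts) it is the start at the 5' end of the gene.
Hmgcs1 (chr13:119690101-119690350, plus strand): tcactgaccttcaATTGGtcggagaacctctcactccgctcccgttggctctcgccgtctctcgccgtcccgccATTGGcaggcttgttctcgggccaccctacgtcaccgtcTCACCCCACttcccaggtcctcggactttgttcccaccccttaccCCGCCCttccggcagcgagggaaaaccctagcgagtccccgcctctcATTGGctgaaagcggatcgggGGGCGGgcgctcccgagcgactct
Dhcr7 (chr7:143822917-143823166, plus strand): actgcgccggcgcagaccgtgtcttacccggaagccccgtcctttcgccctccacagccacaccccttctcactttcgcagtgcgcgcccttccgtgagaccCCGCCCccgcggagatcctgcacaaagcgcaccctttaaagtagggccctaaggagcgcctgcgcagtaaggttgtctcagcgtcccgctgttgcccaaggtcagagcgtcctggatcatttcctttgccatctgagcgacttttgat
Lss (chr10:76531355-76531604, plus strand): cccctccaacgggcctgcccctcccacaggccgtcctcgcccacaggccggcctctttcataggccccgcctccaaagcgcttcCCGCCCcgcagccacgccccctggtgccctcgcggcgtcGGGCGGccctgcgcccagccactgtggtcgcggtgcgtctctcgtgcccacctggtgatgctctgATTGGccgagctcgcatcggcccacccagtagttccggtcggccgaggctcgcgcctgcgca
Me1 (chr9:86695915-86696164, minus strand): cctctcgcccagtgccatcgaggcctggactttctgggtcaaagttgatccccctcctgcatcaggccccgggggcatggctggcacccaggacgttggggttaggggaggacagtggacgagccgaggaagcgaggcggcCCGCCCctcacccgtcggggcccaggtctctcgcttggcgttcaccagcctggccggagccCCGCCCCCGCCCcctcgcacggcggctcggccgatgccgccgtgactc
Hmgcs1 held 1 sterol element, 3 CCAAT boxes and 2 GC boxes in its window. Lss held 1 CCAAT box and 2 GC boxes, Dhcr7 held 1 GC box, and Me1 held 3 GC boxes. The CCAAT matches counted above for Dhcr7 and Me1 lie before other listed starts. A match is a string of letters and not a measured binding site.

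Most genes of the sterol arm read slightly lower on the transgenic array, except when the arrays were scaled to equal spiked controls, while the fatty acid arm went both ways. All 32 genes exceeded the floor on both arrays. In the sterol arm 17 of 19 genes had a ratio under 1, for a median log2 ratio of -0.18, with quartiles of -0.37 and -0.07. In the fatty acid arm 7 of 13 genes had such a ratio, for a median of -0.11, with quartiles of -0.23 and 0.15. Of the 11565 genes that exceeded the floor on each array, 50.1% had a ratio under 1, with their median at 0.00. Across the 6827 genes in the brightness range of the members, with mean signals from 80.1 to 2554, 50.8% had a ratio under 1, the median was -0.01 and the quartiles were -0.18 and 0.17. Both arm medians lay above 0 when the arrays were scaled to equal spiked hybridisation controls, at 0.014 and 0.087, and that scaling put the median of all genes at 0.19. With it, 9 of 19 sterol genes had a ratio under 1, against 27.2% of all genes. Set against the median of all genes under the same scaling, the sterol median lay 0.16 to 0.19 below it under each of the 10 alternatives. The fatty acid median lay 0.02 to 0.13 below that of all genes. Equal medians, equal spiked controls and the deposited scaling multiply an array by a constant, and the other floors left the member ratios unchanged. Those settings could hardly move these distances, so their agreement is no separate support.

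The differences of single genes were small. At least 1.5-fold lower was 1 of the 32 genes, Dhcr7, and 0 were at least 1.5-fold higher. The shares of all genes that passed were 6.78% and 6.36%, and 3.03% and 2.33% in the brightness range of the members. None of the members was 2-fold apart, against 1.58% lower and 1.60% higher among all genes, and 0.615% and 0.308% in that range. Where the brightest probe set of a gene lay in that range and several exceeded the floor, their log2 ratios had an SD of 0.37. This spread between probe sets, dim ones included, is set beside each ratio here. It holds no variation between arrays or pools and is not an error of the ratio. By more than this SD, 8 members were lower (Dhcr7, Fads1, Fdps, Lss, Me1, Msmo1, Srebf1 and Tm7sf2), 5 of 19 in the sterol arm and 3 of 13 in the fatty acid arm, and Acaca was higher. The shares of all genes were 14.5% lower and 14.5% higher, and 9.55% and 8.67% in the brightness range.

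**Figure D1:**
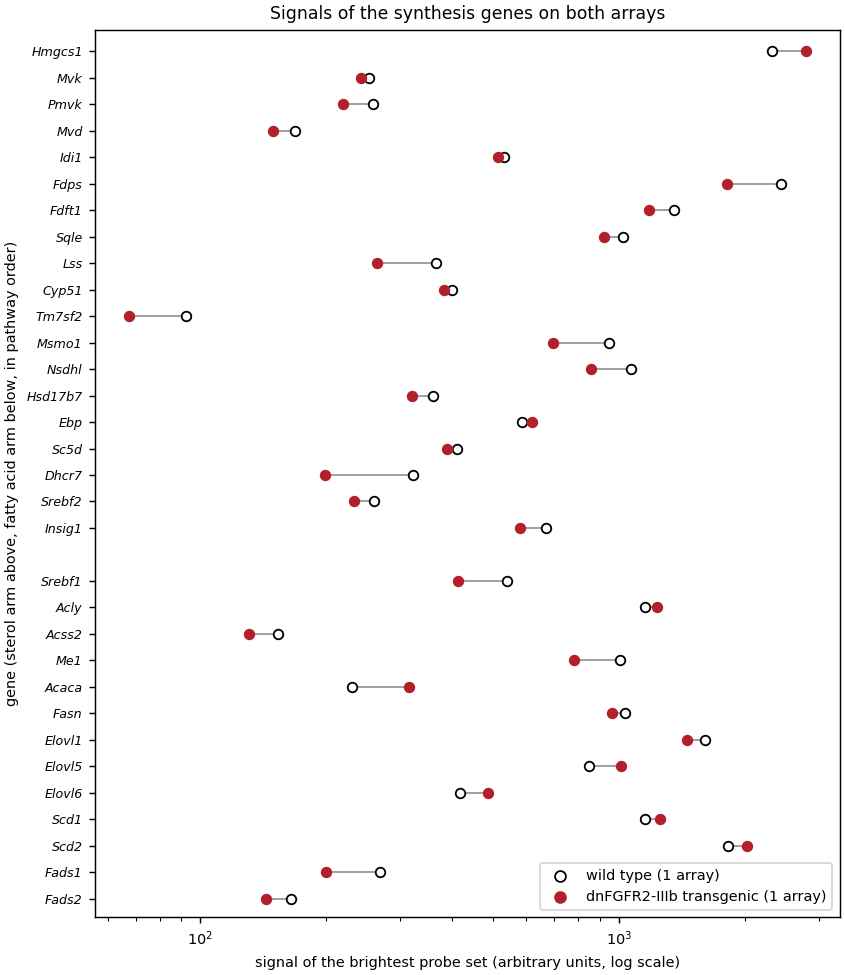
Signal of the brightest probe set of each gene (x axis, arbitrary units, log scale) on the wild-type array (open circles) and the dnFGFR2-IIIb transgenic array (red circles), 1 array each, for the sterol arm above and the fatty acid arm below. Signals compare within a gene, not between genes: the red circle lies left of the open one for 17 of 19 sterol genes and 7 of 13 fatty acid genes. With equal spiked controls 9 of 19 sterol genes had a ratio under 1, against 27.2% of all genes.

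The first 5 enzymes of the sterol arm, up to the isoprenoid units, all lay within the spread between probe sets at their brightest probe set. Of these, 4 had a ratio under 1 and Hmgcs1 lay above it, against 50.1% of all genes under 1. With equal spiked controls Pmvk lay under 0 (-0.04). Mvd (0.01), Mvk (0.13), Idi1 (0.15) and Hmgcs1 (0.46) then lay above it. Hmgcs1, the cytosolic synthase that makes HMG-CoA, read 2315 on the wild-type and 2793 on the transgenic array, a log2 ratio of 0.27. It was the highest ratio of the sterol arm, with 84.9% of genes in the brightness range below it. All 5 of its probe sets exceeded the floor and read higher on the transgenic array, with a mean log2 ratio of 0.37 ± 0.14 (SD over 5 probe sets). The dimmest of them read 18.4 and 25.1. Mevalonate kinase (Mvk) read 253 and 242, and its other probe set gave -0.26 beside the -0.06 of the brighter one. Phosphomevalonate kinase (Pmvk) read 258 and 219, a log2 ratio of -0.24. Mvd, which decarboxylates mevalonate diphosphate to isopentenyl diphosphate, read 168 and 149 (-0.18), and its other probe set gave -0.15. Idi1, the isomerase that yields dimethylallyl diphosphate, read 530 and 514 (-0.04), with 0.13 at its other probe set, so that the sign was not settled.

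From isoprenoid units to lanosterol, all 4 enzymes read lower, with a median log2 ratio of -0.32, against 50.1% of all genes with a ratio under 1. With equal spiked controls Sqle was at 0.04, while Fdps (-0.24), Fdft1 (-0.01) and Lss (-0.27) stayed under 0. Fdps, which makes farnesyl diphosphate, read 2440 and 1807 (log2 ratio -0.43). Fdft1, the squalene synthase, read 1355 and 1180 (-0.20), and its next brightest probe set read lower as well, at -0.43. Squalene epoxidase (Sqle), a rate-limiting enzyme of the later pathway, read 1022 and 920 (-0.15). Lanosterol synthase (Lss) read 365 and 264, which is 1.38-fold lower (-0.46). Its 3 probe sets all read lower, with a mean of -0.39 ± 0.13 (SD over 3 probe sets), so that Lss was the sterol gene with the most probe sets behind a lower signal. Its further probe sets gave -0.45 and, at the dim signals of 31.7 and 26.9, -0.24.

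Of the 8 enzymes that turn lanosterol into cholesterol, 7 read lower, for a median log2 ratio of -0.24, against 50.1% of all genes with a ratio under 1. With equal spiked controls Dhcr7 (-0.51), Tm7sf2 (-0.26), Msmo1 (-0.25) and Nsdhl (-0.12) lay under 0. Cyp51 (0.13), Hsd17b7 (0.02), Sc5d (0.11) and Ebp (0.27) then lay above it, and 27.2% of all genes had a ratio under 1. Dhcr7, the reductase of the last step, read 323 and 199, 1.62-fold lower (log2 ratio -0.70), and 1.87% of the genes in the brightness range had a lower ratio. It has 1 probe set, so no further probe set bears on it. Tm7sf2, a sterol C14 reductase, read 92.5 and 67.6 (-0.45), also at 1 probe set. Msmo1, the C4 methylsterol oxidase, read 945 and 695 (-0.44), and its dim further probe set, at 20.1 and 22.8, went the other way (0.18). Nsdhl, which acts beside Msmo1 in removing the C4 methyl groups, read 1068 and 858 (-0.31). Both Nsdhl and Ebp lie on the X chromosome, and the pools differed in Xist. Its part in their values was not tested.

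The other late enzymes were near a ratio of 1. Hsd17b7, the ketoreductase of C4 demethylation, read 360 and 319 (log2 ratio -0.17), with -0.15 and 0.02 at further probe sets. Cyp51, the lanosterol C14 demethylase, read 398 and 382 (-0.06), with 0.11 at a further probe set. Sc5d, the C5 desaturase, read 411 and 388 (-0.08), while its further probe sets gave 0.07 and, at the dim signals of 11.7 and 24.4, 1.06. Ebp, the sterol isomerase, read 587 and 621 (0.08), and with Hmgcs1 was the exception in direction. Hsd17b7, Cyp51 and Sc5d, like Idi1 and Msmo1, thus had probe sets on both sides of 1.

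The regulators read lower by less than 1.5-fold. Srebf1 read 540 and 412 (log2 ratio -0.39), and Insig1, which is itself a target of SREBP, read 669 and 579 (-0.21), each at 1 probe set. Srebf2 read 260 and 233 (-0.16), and -0.01 at its other probe set. With equal spiked controls Srebf2 was at 0.04, Insig1 at -0.02 and Srebf1 at -0.20. The arrays measure the messenger RNA and not the cleaved, active SREBP proteins.

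Across the sterol arm, the further probe sets went both ways, though most had the sign of the brightest probe set of their own gene. Of the 17 further ones that exceeded the floor on each array, from 11 genes, 7 had a ratio under 1 and their median log2 ratio was 0.07, against -0.18 for the brightest. The sign matched that of the brightest probe set in 11 of the 17. Over a mean signal of 100 there were 10 further probe sets, of which 5 lay under 1, with a median of 0.05. The sign matched in 8 of those 10. Hmgcs1 gave 3 of those 10, and the 7 of the other genes had 5 ratios under 1 and a median of -0.15. Taking the mean over the probe sets of a gene left 15 of 19 sterol genes with a ratio under 1, against 47.3% of all genes, and a median of -0.16. That mean also took in probe sets above the floor on only 1 array. Cyp51 was at -0.12 with these, but at 0.02 over the probe sets above the floor on both.

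**Figure D2:**
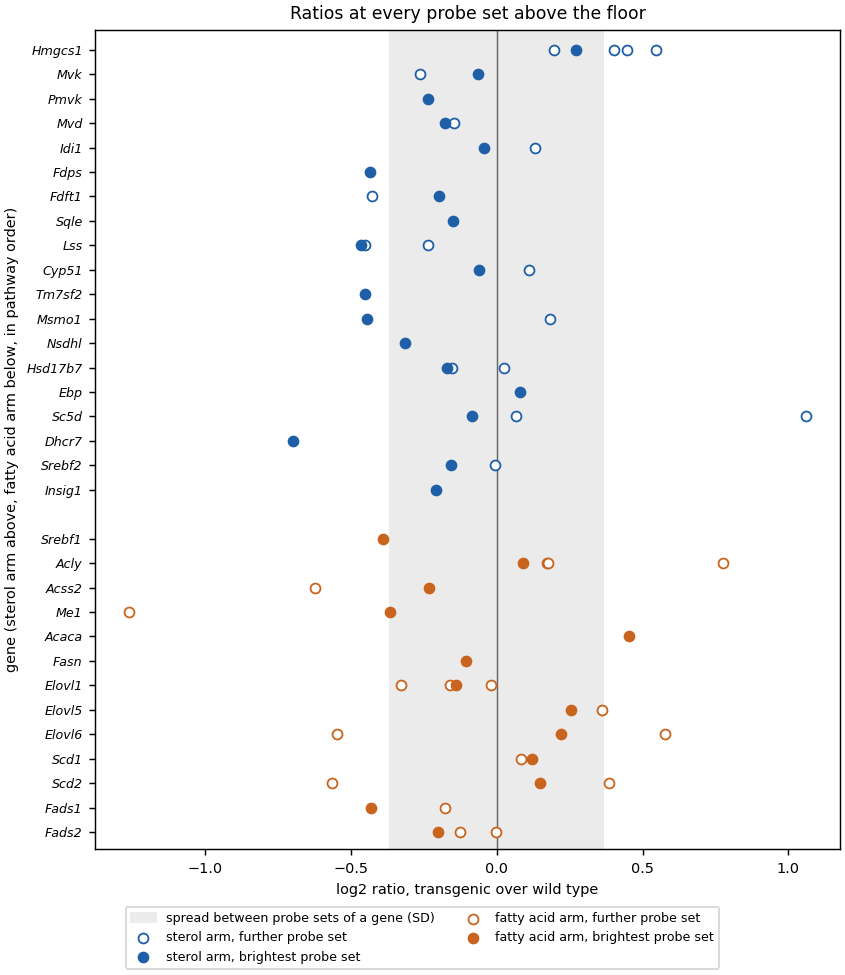
Log2 ratio of the transgenic over the wild-type array (x axis) at each probe set that exceeded the floor on each array, by gene in pathway order, filled for the brightest probe set and open for further ones. The grey band is the SD of 0.37 between probe sets of a gene, which is not a spread between arrays. Dhcr7 at -0.70 lies outside the band, while all 5 Hmgcs1 probe sets lie right of 0 and the Me1 probe sets lie far apart.

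In the fatty acid arm, 7 genes read lower and 6 higher, and supply, chain synthesis, elongation and desaturation each held both directions. Me1, the malic enzyme that supplies NADPH, read 1008 and 781 at its brightest probe set (log2 ratio -0.37) and 582 and 243 at the other, where it was the lowest of all member probe sets at -1.26. The mean was -0.81 ± 0.63 (SD over 2 probe sets), so that the direction agreed between the probe sets and the size did not. Acss2, which makes acetyl-CoA from acetate, read 153 and 130 (-0.23), with -0.62 at its other probe set. ATP citrate lyase (Acly), the main source of cytosolic acetyl-CoA, read 1155 and 1229 (0.09). Its 3 further probe sets above the floor were also above 0, the dimmest at signals of 11.8 and 20.2.

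Acaca, the acetyl-CoA carboxylase that commits carbon to fatty acids, read 230 and 315, 1.37-fold higher (log2 ratio 0.45), the highest ratio of all 32 genes. Of the genes in the brightness range, 94.96% had a lower ratio, and no other Acaca probe set exceeded the floor on both arrays. Fatty acid synthase (Fasn), the next enzyme, read 1033 and 960 (-0.11). Fasn lay within the spread between probe sets, and with equal spiked controls it read 0.09 and Acaca 0.65, both above 0.

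Among the elongases, Elovl5, which extends polyunsaturated chains, read 848 and 1012 (log2 ratio 0.26), and 0.36 at its other probe set. Elovl6, which extends palmitate, read 418 and 487 (0.22), with 0.58 and, at the dim signals of 40.3 and 27.6, -0.55 at further probe sets. Elovl1, which makes very long saturated chains, read 1605 and 1457 (-0.14). All 4 of its probe sets read lower, with a mean of -0.16 ± 0.13 (SD over 4 probe sets), the dimmest at signals of 17.7 and 14.1. Elovl5 and Elovl1 were each of one sign over their own probe sets, but with equal spiked controls Elovl1 was at 0.05 and Elovl5 at 0.45, both above 0.

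The 4 desaturases went both ways. Scd1, a stearoyl-CoA desaturase that makes monounsaturated fatty acids, read 1152 and 1252 (log2 ratio 0.12), and 0.08 at its other probe set, but -0.02 when the arrays were scaled to equal medians. Its paralog Scd2 read 1824 and 2021 (0.15), but its further probe sets gave 0.38 and -0.57, so that no direction can be given for it. Similar paralogs can share signal, which makes the Scd values uncertain. Fads1, the delta-5 desaturase of polyunsaturated fatty acids, read 269 and 199, 1.35-fold lower (-0.43), and -0.18 at its dim further probe set. Fads2, the delta-6 desaturase, read 165 and 143 (-0.20), with -0.12 and -0.00 at further ones.

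**Figure D3:**
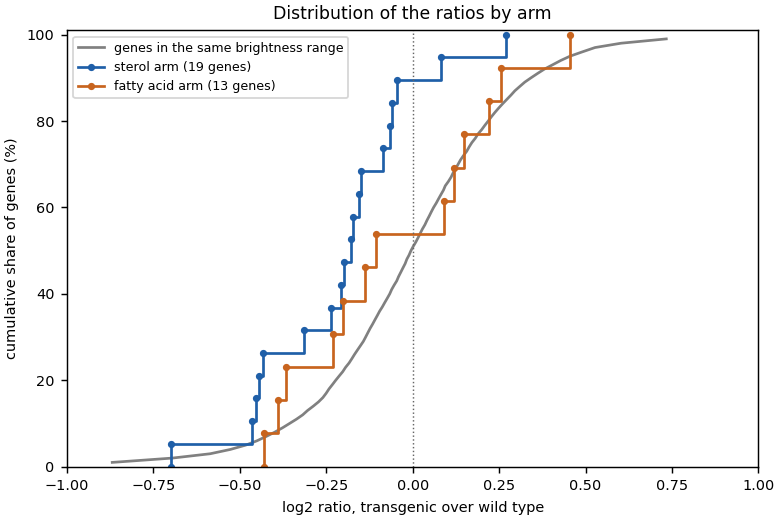
Cumulative share of genes (y axis, %) with a log2 ratio of the transgenic over the wild-type array up to the value on the x axis, for the sterol arm (19 genes), the fatty acid arm (13 genes) and genes in the same brightness range (grey, 1st to 99th percentile). The sterol curve lies left of the grey one over its middle, with a median of -0.18 against -0.01, while the fatty acid curve crosses it, and with equal spiked controls the sterol median was 0.014 and that of all genes 0.19.

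Other genes of the pathways were counted from a list of 20 sterol and 24 fatty acid genes. Of the 14 sterol ones with a probe set, all above the floor, 6 had a ratio under 1 and 8 above it (median 0.02). Nr1h3, the sterol-sensing receptor LXR alpha, was the one that passed 1.5-fold, at 12.9 and 34.8 (log2 ratio 1.43), and was dim on the wild-type array. Of the 22 fatty acid genes with a probe set, 17 exceeded the floor on both arrays, with 11 ratios under 1, 6 above it and a median of -0.04. Acss1, the mitochondrial acetyl-CoA synthetase, passed 1.5-fold, at 31.9 and 12.5 (-1.35). Genes under the floor on one array were not among those counts. Of these, named after their values were seen, Fa2h, a fatty acid 2-hydroxylase, read 50.6 and 8.0, Thrsp, a lipogenic regulator, 27.1 and 10.3, and Acacb, the mitochondrial acetyl-CoA carboxylase, 10.3 and 18.7. Both list medians lay within 0.1 of 0.

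Follicle pools can carry cells that are rich in these pathways. Fewer cells of a type and less RNA per cell cannot be told apart in pooled tissue. Of 10 sebocyte markers with a probe set, 7 exceeded the floor on both arrays, 6 of them with a ratio under 1, with a median log2 ratio of -0.19 and a summed signal of 7551 on the wild-type and 6365 on the transgenic array. Summed signals here and for the lists that follow are over every marker with a probe set. Of all genes above the floor on both arrays, 50.1% had a ratio under 1. The marker lists were not read with equal spiked controls, which put the median of all genes at 0.19. Mgst1 read 4961 and 4356, Elovl3 1329 and 1158, and the lipid droplet gene Plin2 974 and 610. Fa2h is also on this list, not counted because its transgenic signal was below the floor, and Mc5r, a melanocortin receptor named after its values were seen, read 13.8 and 25.6. Of 7 adipocyte markers, 6 exceeded the floor on both, 3 with a ratio under 1, and the sums were 8189 and 6111. Fabp4 read 7211 and 5108, Car3 511 and 486, Lpl 298 and 394, and Adipoq 139 and 65.3. Lep, with a wild-type signal below the floor, read 4.60 and 26.7, the opposite direction to Adipoq.

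The 4 markers of the outer root sheath and basal layer all read lower on the transgenic array, against 50.1% of all genes. They too were not read with equal spiked controls. Their median log2 ratio was -0.19, beside -0.18 for the sterol arm, with sums of 9909 and 8731, and Krt14 read 4474 and 3954, Krt5 3943 and 3619, and Krt15 1138 and 852. The 8 hair shaft and matrix markers had 1 ratio under 1 and a median of 0.12 (sums of 37048 and 39666), with Krt34 at 9824 and 9408 and Krt86 at 7298 and 7795. The 6 inner root sheath markers had 2 ratios under 1 and a median of 0.01 (sums of 44790 and 45280), with Krt71 at 9728 and 10171 and Krt27 at 9586 and 9644.

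The remaining lists had lower summed signals. Of 7 epidermal markers, 3 exceeded the floor on both arrays, all with a ratio above 1 (sums of 268 and 461): Krt10 read 150 and 225, Lor 78.6 and 130 and Krt77 16.6 and 63.8, and Krt78, with a wild-type signal below the floor, 10.1 and 32.3. Of 5 immune markers, 2 did so, both above 1 (sums of 49.5 and 116), and Lyz2 read 21.6 and 32.8, Cd74 11.2 and 22.9, and H2-Aa 7.60 and 42.4. None of 4 muscle markers did (sums of 19.9 and 63.6), and Acta1 read 9.40 and 37.3, Myh4 1.20 and 17.5 and Ckm 7.10 and 5.80. The part of any of these cell types in the sterol and fatty acid values was not tested.

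**Figure D4:**
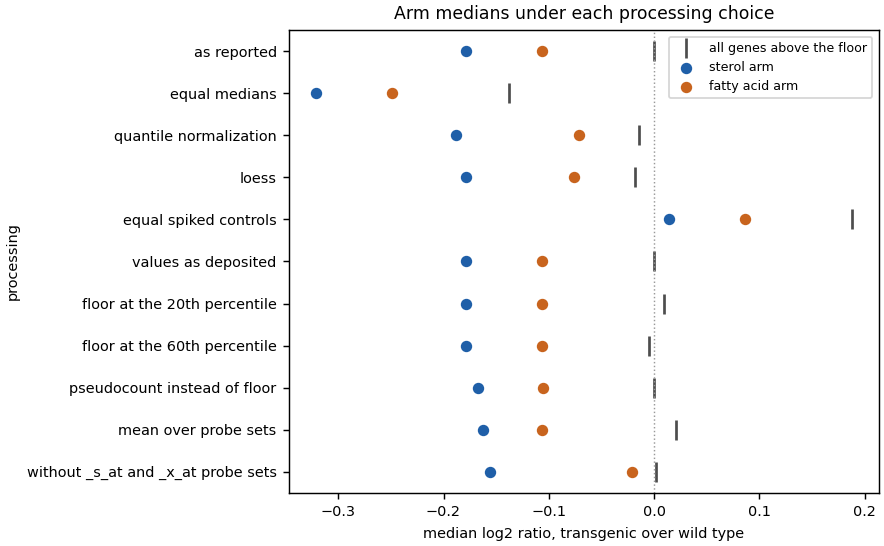
Median log2 ratio of the transgenic over the wild-type array (x axis) for the sterol arm, the fatty acid arm and all genes above the floor (vertical ticks), as reported and under each of 10 processing choices (y axis). The sterol point lies left of the tick in every row, and both arms cross to the right of 0 with equal spiked controls, at 0.014 and 0.087. Rows that multiply an array by a constant move points and tick nearly alike, so their agreement is no separate support.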

How the data were processed

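The authors deposited a linear intensity for every probe set on each of 2 arrays, with a 2% trimmed mean of 100 per array, as the values show. How probes were summarised is not given in the sources used here. In all, 64 control probe sets were left out. The other 45037 were rescaled to equal 2% trimmed means, values under the 40th percentile of both arrays (10.5) were set to it, and log2 ratios were taken. Genes were named by the platform annotation. A gene entered through probe sets with its symbol alone, and was represented by the brightest. Such scaling removes any shift shared by all genes. No test was run because each group has 1 array. The procedure was tested on simulated data and run with Python 3.11.15. The simulated shifts were larger than the arm medians here, the noise was lower, and scaling to spiked controls was not simulated. All members were named, and so were the 3 brightest genes of each marker list, those at least 2-fold apart, and other pathway genes at least 1.5-fold apart, in both cases only where both signals exceeded the floor. Fa2h, Thrsp, Acacb, Mc5r, Lep, Krt78, Flg and Krt1 were named outside this rule, after their values were seen. Members, lists and settings were chosen with earlier results of these data known.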

Additional observations from a re-analysis of the deposited data

How the results depend on the processing

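Quantile normalization, loess, the deposited scaling, both other floors and a pseudocount left both arm medians within 0.1 and the counts of 17 and 7 ratios under 1 as they were. Equal medians gave arm medians of -0.32 (sterol) and -0.25 (fatty acid) and 4 of 32 members at least 1.5-fold lower, against 10.7% of all genes, whose median was -0.14. Equal spiked controls turned the medians to 0.014 and 0.087 and left 9 sterol genes with a ratio under 1, against 27.2% of all genes. That scaling gave 0 members at least 1.5-fold lower and 1 higher (Acaca, 0.65), against 3.82% and 12.7% of all genes, whose median was 0.19. The cause of the shift was not tested. Averaging over probe sets gave 2 lower (Dhcr7, and Me1 at -0.81) and 1 higher (Acaca, 0.64), against 5.75% and 6.09% of all genes. The Acaca mean took in a dim further probe set, at 9.60 and 18.5, whose wild-type signal fell below the floor. Without that probe set Acaca was at 0.45, under 1.5-fold. The averaging also moved Sc5d to 0.35, which is under 1.5-fold. The lower of the alternative fold thresholds gave 8 lower and 1 higher, against 16.8% and 17.0% of all genes, and 2-fold gave 0 lower. Using no probe set of the less specific _s_at and _x_at types moved the fatty acid median to -0.02. No setting that was run turned the sign of Dhcr7. With 1 probe set, the settings on probe sets could not change its ratio, and the other floors left it as it was. Replicates could not be left out, with 1 array per group.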
